A study of Mus musculus with 31 samples.

Results

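In mouse primordial germ cells of male embryos at E13.5, a stage counted in days after mating, H3K27me3 and H3K9me3 peaks shared little length. Both marks cover little of the genome. Same-numbered pairs 1 and 3 shared 112 and 84.3 kb, above the 73.9 and 38.8 kb of random placement. With H3K27me3 replicate 3 and H3K9me3 replicate 1 joined, shared length fell below random placement. Bins of 10 kb with at least 1 kb of each mark were fewer than the product of shares gives (11 against 68.8, 12 against 41.2). H3K27me3 was densest on chromosomes 5, 11 and 19, held more than the share of sequence in the last 10 Mb of the autosomes, and was nearly missing from X. H3K9me3 covered more of the genome, and lay on X at about the chromosome's share of the genome (above it among the top-scored peaks). It held more than the share of sequence in the first 10 Mb of the autosomes. The median H3K27me3 peak lay farther from H3K9me3 than the median place in the genome did, while a small group of narrow H3K27me3 peaks sat wholly inside H3K9me3 peaks. The 6 peak lists described here are all those labelled E13.5 male with 1 of the 2 marks, and they were taken from the sample titles. They are 3 lists of H3K27me3 and 3 of H3K9me3, out of 18 peak lists and 31 samples in the series.

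Both marks are trimethylated lysines on histone H3. H3K27me3 is written by the EZH1 and EZH2 subunits of Polycomb repressive complex 2, forms domains over silent developmental genes, and can spread over CpG-rich promoters. H3K9me3 is written by enzymes such as SETDB1 and SUV39H1, marks constitutive heterochromatin, and keeps retrotransposons and satellite repeats silent. Primordial germ cells are the embryonic precursors of eggs and sperm. They lose most of their DNA methylation on the way to the gonad, and at E13.5 male cells in the forming testis are about to enter mitotic arrest while female cells enter meiosis.

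Every group was wild type on a C57BL/6 x GOF18delta_PE-EGFP background, in which a reporter driven by a part of the Oct4 (Pou5f1) control region makes germ cells fluoresce. The groups used here are E13.5 male H3K27me3, E13.5 male H3K9me3, the same marks in E13.5 female cells, and the same marks in E10.5 cells, which the labels do not sex. Each library came from native chromatin of 1000 cells cut with micrococcal nuclease, with no fixation. The series asked how these marks change while germ cells are reprogrammed, and the question here is how both lie relative to each other in male cells.

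The male H3K27me3 lists held 3522 peaks (replicate 1), 359 peaks (replicate 2) and 5326 peaks (replicate 3), against 56632, 47086 and 30684 peaks in the H3K9me3 lists of replicates 1, 2 and 3. Read counts are not given in the lists, so depth is unknown, and how far list length reflects depth, antibody or mark cannot be told apart. The 359-peak list stood apart in length and in position, and it is described on its own below. Means and tests use H3K27me3 replicates 1 and 3 against the 3 H3K9me3 lists, with the result over all 6 lists where it differs. Nothing in the labels ties replicates to separate embryos, so each p-value reflects the spread among libraries alone, part or all of which may be technical. Per the peak names, both marks of replicate 1 were called against the same input library, and so were both marks of replicate 2, while each replicate 3 list had its own input. Chromosome Y held 87 to 135 H3K9me3 peaks in the male lists, against 5 or 6 in the female lists, the direction that the sex labels give. Coordinates below are mm9, and regions are given without gene names because the annotation at hand is of another build.

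H3K27me3 covered 2.47 Mb in replicate 1 and 3.99 Mb in replicate 3, against 78.9, 46.9 and 25.7 Mb of H3K9me3 in replicates 1, 2 and 3. Every H3K27me3 list lay below every H3K9me3 list. The means were 3.23 ± 1.07 Mb (SD, n = 2) for H3K27me3 and 50.5 ± 26.8 Mb (SD, n = 3) for H3K9me3, a difference of -47.3 Mb. With a score of at least 20 the difference was -4.76 Mb, and at or above each list's median score it was -29.1 Mb. H3K27me3 peaks were also the narrower, with median widths of 493.5 and 553 bp against 863, 703 and 613 bp for H3K9me3. Peaks of 2 kb or wider held 18.2 and 20.4% of the H3K27me3 length, against 55.6, 35.0 and 24.7% of the H3K9me3 length.

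The widest peaks differed by more than the medians. The widest H3K27me3 peak spanned 5827 bp in replicate 1 (chr14:13174305-13180131) and 7253 bp in replicate 3 (chr9:74704484-74711736). The widest H3K9me3 peak spanned 50382, 50387 and 47693 bp in replicates 1, 2 and 3, and it lay on the same stretch near the start of chromosome 11 in all 3 lists (chr11:3049678-3100059 in replicate 1). No male H3K27me3 peak reached 10 kb, whereas 208, 39 and 16 H3K9me3 peaks did.

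**Figure D1:**
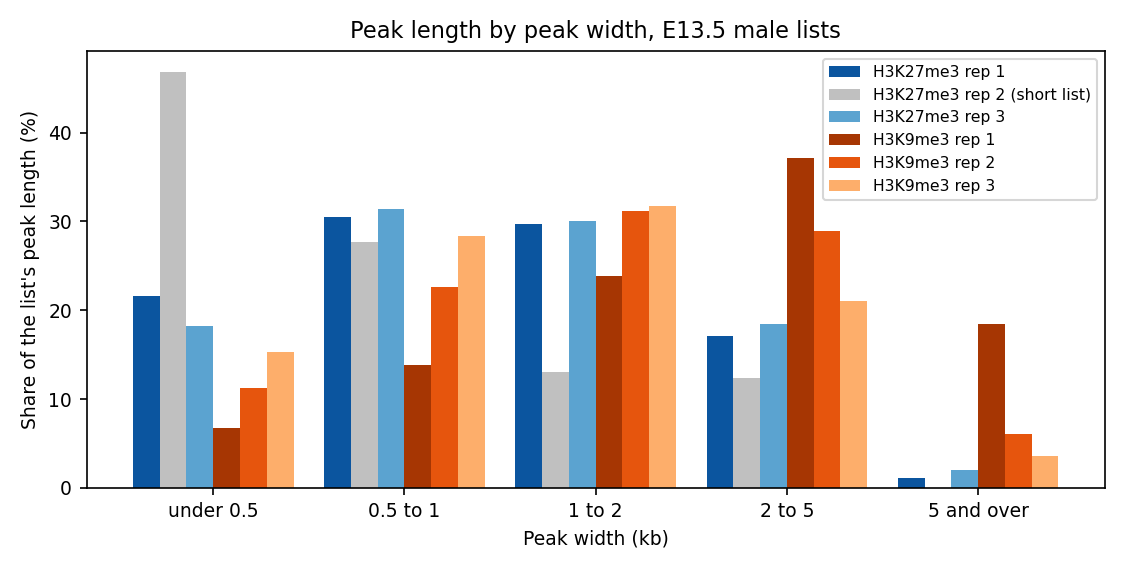
Share of each list's peak length (y axis, %) by peak width in kb (x axis) for the 6 E13.5 male lists, 1 bar per list. H3K9me3 bars are the taller ones from 2 kb upward (55.6, 35.0 and 24.7% together), and the short H3K27me3 list has 46.9% of its length in peaks under 0.5 kb.

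Exact two-sided permutation tests of 2 against 3 lists cannot go below p = 0.2. Covered length, median width and the share in wide peaks each gave an exact p of 0.2 (0.2 adjusted over 6 tests), and with all 3 H3K27me3 lists each gave an exact p of 0.1 (0.12 adjusted), the smallest that 3 against 3 allows. Widths rested on the choice of peaks and lists. The difference in median width of -203 bp was -48.3 bp among equal numbers of top-scored peaks, and the difference in wide peaks of -19.1 points was -10.5 points without H3K9me3 replicate 1.

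Chromosome X was nearly free of H3K27me3. It held 0.484 and 0.325% of the H3K27me3 length (42 and 37 peaks), against 6.01, 7.28 and 8.02% of the H3K9me3 length (4823, 3997 and 2528 peaks), where X makes up 6.31% of the genome. Of those few X peaks of H3K27me3, 33 of 42 in replicate 1 and 24 of 37 in replicate 3 overlapped an H3K9me3 peak of the same number. No 10-kb bin of X held at least 1 kb of H3K27me3 in both lists (0 of 16666), and 482 X bins held that much H3K9me3 in all 3 lists. In female cells X held 3.18, 3.33 and 3.16% of the H3K27me3 length and 19.9, 20.1 and 23.1% of the H3K9me3 length. No share was adjusted for the number of X copies, which differs between the sexes. The male difference between the marks was -6.70 points (exact permutation p = 0.2, the smallest possible, 0.2 adjusted over 6 tests). It was -13.2 points with a score of at least 20 and -16.0 points among equal numbers of top-scored peaks, where H3K9me3 had 14.7 to 17.9% of its length on X.

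The marks exceeded the share of sequence at opposite ends of the autosomes, whose first ends carry the centromeres in mouse. Most of the length of each mark lay away from that end. The last 10 Mb of each autosome held 13.7 and 15.2% of the H3K27me3 length, against 5.93, 5.60 and 6.19% of the H3K9me3 length, and such a stretch makes up 7.87% of the autosomes. The first 10 Mb held 4.41 and 3.66% of the H3K27me3 length, against 15.3, 15.7 and 15.3% of the H3K9me3 length. The groups did not overlap at either end. The differences were 8.53 points at the last and -11.4 points at the first 10 Mb (exact permutation p = 0.2 for each, 0.2 adjusted over 6 tests). With the short list included the first-end difference was -6.18 points and the groups overlapped (exact permutation p = 0.4), since that list held 19.7% there.

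The share of a list's length on each chromosome, divided by the chromosome's share of the genome, was compared with limma on 20 chromosomes. H3K27me3 was higher on 8 chromosomes (2, 4, 5, 6, 8, 11, 15 and 19), which is 40% of those tested, and lower on 7 (1, 3, 7, 12, 14, 16 and X), which is 35%. Chromosomes 9, 10, 13, 17 and 18 were not called. The shares of a list sum to a whole, so chromosomes are not independent, and limma gave all 20 the same standard error of 0.11 on the log2 scale. P-values from that shared spread are small for 5 lists.

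Chromosome 11 had 1.65 and 1.89 times its genome share of H3K27me3, against 0.567, 0.536 and 0.564 times its share of H3K9me3. Its log2 difference was 1.65 ± 0.11 (SE; limma adjusted p = 1.07e-20, and 0.0139 over all 6 lists), the largest increase with all peaks. With a score of at least 20 it was 1.45 and chromosome 19 had the largest, 1.92, as it did among top-scored peaks (1.85, against 1.35 for chromosome 11). Chromosome 19 had 1.82 and 1.71 times its share of H3K27me3, against 0.864, 0.801 and 0.734 times its share of H3K9me3, a log2 difference of 1.13. Chromosome 5 carried the highest H3K27me3 ratios of all, 1.82 and 1.93, against 1.08, 1.11 and 1.19 for H3K9me3. Its call was lost over all 6 lists (limma adjusted p = 0.102) and with a score of at least 20 (log2 difference 0.29, limma adjusted p = 0.191).

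Chromosome 7 was the richest autosome for H3K9me3. It had 1.02 and 1.13 times its genome share of H3K27me3, against 1.82, 2.04 and 1.96 times its share of H3K9me3, a log2 difference of -0.84. Among equal numbers of top-scored peaks this was -0.36 and the call was lost (limma adjusted p = 0.0664). On chromosome 12 the ratios were 0.710 and 0.585 for H3K27me3, against 1.29, 1.31 and 1.48 for H3K9me3, a log2 difference of -1.06, which was -0.26 among top-scored peaks with the call lost (limma adjusted p = 0.19). Chromosome 3 differed by the same -1.06, with ratios of 0.546 and 0.449 for H3K27me3, against 1.12, 1.08 and 0.941 for H3K9me3, and among top-scored peaks by -0.57. The calls of chromosomes 8 and 14 were also lost among top-scored peaks (limma adjusted p of 0.16 and 0.227). X differed the most, by -3.95 ± 0.11 (SE; limma adjusted p = 1.28e-40, and 0.013 over all 6 lists). Chromosome 17 carried both marks above its share, with 1.10 and 1.47 for H3K27me3, against 1.21, 1.28 and 1.22 for H3K9me3, and its log2 difference of 0.04 did not pass the test.

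**Figure D2:**
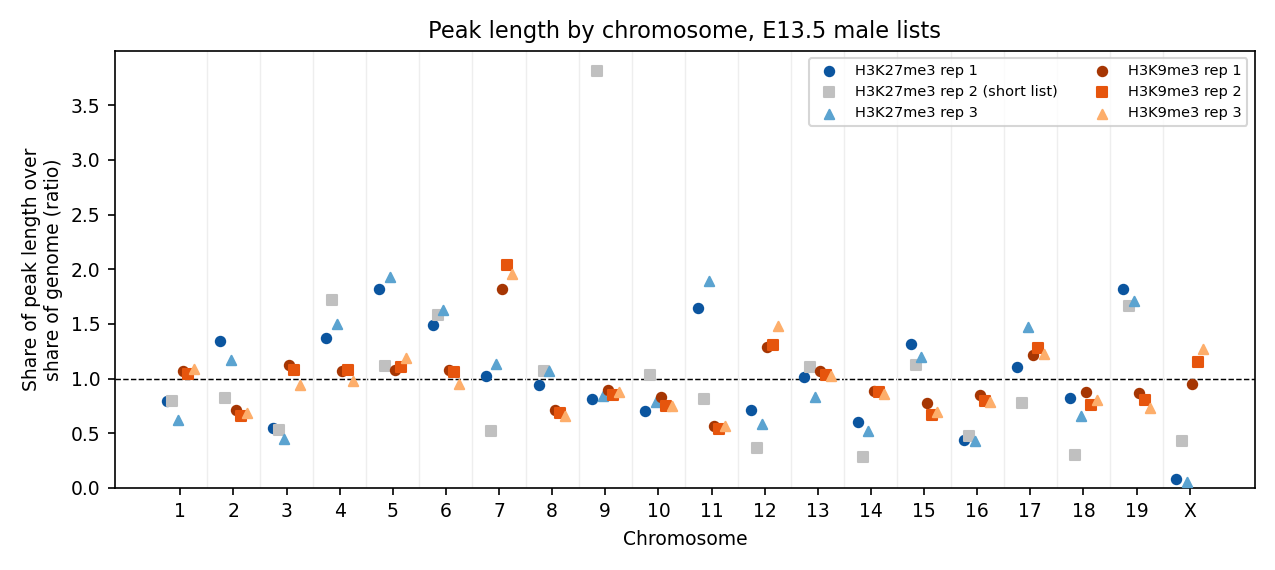
Share of peak length over share of the genome (y axis, ratio, dashed line at 1) for each chromosome (x axis) in the 6 E13.5 male lists, 1 point per list. H3K27me3 replicates 1 and 3 lie above every H3K9me3 list on chromosomes 11 (1.65 and 1.89) and 19 and near 0 on X, and the short list stands at 3.81 on chromosome 9.

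Across the 19 autosomes the H3K27me3 ratio went with the number of protein-coding genes per Mb in replicates 1 and 3. Pearson's r was 0.546 and 0.652 and Spearman's rho was 0.632 and 0.723. In the short list they were lower, with an r of 0.232 and a rho of 0.435. For H3K9me3 the same r was 0.116, 0.205 and 0.148 and rho was -0.146, -0.10 and -0.167. Autosomes of 1 list share its library and its total, so these are descriptions without a p. Between the marks, the mean ratios had an r of -0.08 and a rho of -0.12.

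At the scale of 1 Mb, the H3K27me3 lists filled fewer bins than the H3K9me3 lists, and their length was more concentrated. A list with fewer peaks can fill fewer bins. Filled bins and concentration were not computed at equal peak numbers, so mark and list length cannot be told apart here. Of 2652 bins of 1 Mb, 861 held H3K27me3 in both lists and 2423 held H3K9me3 in all 3 lists. The 265 bins with the most length (10% of all) held 73.4 and 72.6% of the H3K27me3 length, against 44.6, 50.1 and 48.5% of the H3K9me3 length. The marks ran against each other across bins, with Spearman's rho of -0.283 between their means over 2571 bins, where the H3K27me3 lists correlated at 0.693 and the H3K9me3 lists at 0.907 to 0.957. Bins of 1 list share a total, so these too are descriptions. In all, 776 bins held H3K27me3 in both lists together with H3K9me3 in all 3, where the product of the shares gives 787.

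Each list's length per bin, in ppm of its own total, was tested with limma on log2(ppm + 100). H3K27me3 was higher in 491 of 2571 bins (19.1%) and lower in 1348 (52.4%). The median log2 difference over all bins tested was -0.98, while the calls are tests against 0. Of the 1348 lower bins, 1227 lay below that median. Among equal numbers of top-scored peaks, 376 of 1888 bins were higher and 351 lower, and with all 6 lists 106 were higher and 1311 lower. The share of calls that were higher was 26.7% in the 5 lists, 51.7% among top-scored peaks and 7.48% over all 6 lists, so the balance of directions depended on the peaks and lists kept. A score minimum of 20 left 264 of 1998 bins higher and 438 lower. On X, 1 of 163 bins tested was higher and 109 were lower.

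The 5 called bins with the largest increase were on chromosomes 6, 11, 15 and 5. The bin chr6:114000001-115000000 held 15090 and 23277 ppm of the H3K27me3 length, against 21.0, 7.69 and 48.0 ppm of the H3K9me3 length. Its log2 difference was 7.24 ± 0.26 (SE; limma adjusted p = 5.83e-05). The bin chr11:96000001-97000000 held 16948 and 13393 ppm of H3K27me3, against 4.37, 5.43 and 9.76 ppm of H3K9me3, and chr15:102000001-103000000 held 15301 and 12357 ppm, against 7.54, 0 and 0 ppm. The remaining 2 were chr5:118000001-119000000, with a log2 difference of 6.61, and chr6:83000001-84000000, with 6.36. The groups did not overlap in any of these 5, and the short list was high in all of them too, at 5137 to 18606 ppm.

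The 5 called bins with the largest decrease had no H3K27me3 in any male or female list, so their log2 differences are set by the 100 ppm added and by the H3K9me3 level. The bin chr5:95000001-96000000 held 0 ppm of H3K27me3 in both lists, against 7027, 10048 and 10515 ppm of H3K9me3. The others were chr7:15000001-16000000, chr12:19000001-20000000, chr12:18000001-19000000 and chr7:9000001-10000000, with 5518 to 8285 ppm of H3K9me3 in the male lists. Each had a limma adjusted p of 5.83e-05. All 10 of these named bins kept their direction and their call under every alternative run with 1-Mb bins.

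**Figure D3:**
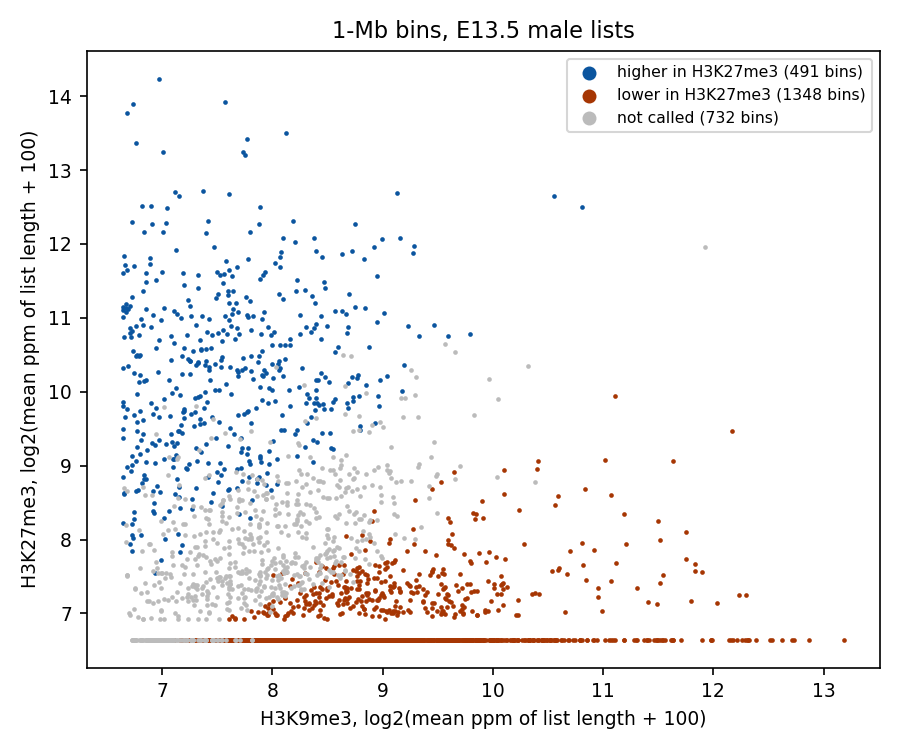
Mean H3K27me3 (y axis) against mean H3K9me3 (x axis) in each of 2571 bins of 1 Mb, both as log2 of ppm of list length plus 100, over male H3K27me3 replicates 1 and 3 and the 3 male H3K9me3 lists. Bins called higher in H3K27me3 (491) fill the upper left, bins called lower (1348) lie low, 970 of them at the bottom where H3K27me3 is 0 in both lists, and few bins are high in both.

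The longest stretches of each mark held none of the other, as did most of the genome. Of all 10-kb bins, 83.1% held no base of H3K9me3 in any male list. A 10-kb bin was taken to carry a mark when at least 1 kb of it lay in peaks, and 525 bins carried H3K27me3 in both lists, in 371 separate stretches. The longest stretches were 100 kb long, at chr6:114450001-114550000 and chr11:96110001-96210000. They were followed by chr6:52130001-52210000, chr15:102750001-102810000 and chr6:83340001-83390000. The first held 28.2 and 63.6 kb of H3K27me3 peaks, and the second 27.9 and 29.6 kb. All 5 stretches held 0 kb of H3K9me3 in each of the 3 male lists. The nearest H3K9me3 peak lay 38.3 to 158 kb from the first stretch, and 0.835 to 602 kb from the second.

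H3K9me3 was carried by 6574 bins in all 3 lists, in 4560 stretches. The longest were 250 kb, at chr7:15800001-16050000 and chr7:10430001-10680000, followed by chr5:95050001-95270000, chr5:95390001-95580000 and chr1:85020001-85200000. The first held 166, 136 and 89.8 kb of H3K9me3 peaks. All 5 stretches held 0 kb of H3K27me3, and the nearest H3K27me3 peak was 6.31 to 152 kb from the first and 2713 to 2715 kb from the fifth. Of the 6574 bins, 99.1% held no base of H3K27me3 in replicates 1 and 3, near the 98.1% of all bins. Stretches of a single bin made up 75.2% of the H3K27me3 stretches and 77.1% of the H3K9me3 stretches.

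H3K27me3 peaks kept their distance from H3K9me3. Their median distance to the nearest H3K9me3 peak of the same number was 79.5 kb in pair 1, against 39.0 kb from the centres of all 10-kb bins of the genome, and 143 kb in pair 3, against 71.9 kb. The ratio of these medians was 2.04 and 1.99. It was lower with stricter peaks, at 1.49 and 1.52 with a score of at least 20 and at 1.46 and 1.60 among equal numbers of top-scored peaks. Female pairs had ratios of 1.66, 1.95 and 1.63, and E10.5 pairs had 1.44, 1.62 and 1.25. From the side of H3K9me3 the median distance to H3K27me3 was 865 and 851 kb, against 644 and 538 kb from bin centres.

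The distances had a gap. In pair 1, 364 of 3522 H3K27me3 peaks (10.3%) overlapped H3K9me3, but just 14 (0.398%) lay within 1 kb of it without touching, and 149 (4.23%) lay 1 to 10 kb away. Bin centres fell in these classes at 3.10, 3.68 and 16.1%. In pair 3, 278 of 5326 peaks (5.22%) overlapped, 13 (0.244%) lay within 1 kb and 153 (2.87%) at 1 to 10 kb, while bin centres gave 0.981, 2.18 and 10.9%. Beyond the overlaps, H3K27me3 peaks within 10 kb of H3K9me3 were thus fewer than bin centres in both pairs. A peak has width and a bin centre has none, so peaks meet H3K9me3 more easily than centres do, and the genome bins include stretches where no read can map.

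**Figure D4:**
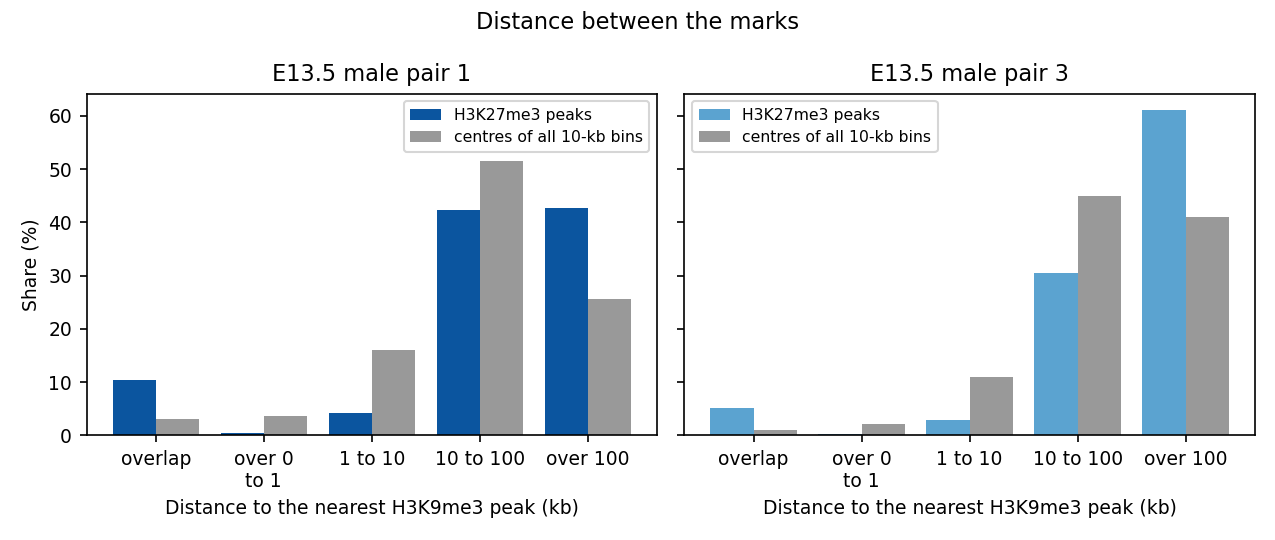
Share (y axis, %) of H3K27me3 peaks (blue) and of the centres of all 10-kb bins (grey) by distance in kb to the nearest H3K9me3 peak (x axis), in male pairs 1 and 3. Peaks exceed bin centres among overlaps (10.3 and 5.22%) and beyond 100 kb (42.7 and 61.2%), and almost none lie over 0 to 1 kb away.

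The overlapping H3K27me3 peaks were narrower and higher in score than the others by their medians. Their median width was 283 bp in replicate 1, against 562 bp for peaks that overlapped no H3K9me3, and 248 bp in replicate 3, against 582 bp. In replicate 1, 334 of 364 (91.8%) lay wholly inside H3K9me3 peaks, as did 228 of 278 (82.0%) in replicate 3. Their median score was 40.5 and 29.6, against 20.2 and 18.5 for the others, on the authors' own scale. Every H3K27me3 peak with a score over 100 was an overlapping one, 44 in replicate 1 and 20 in replicate 3. Peaks that did not overlap reached scores of 91.1 and 68.9, above the medians of the overlapping ones. The median overlapping peak lay in 7 of the 9 H3K9me3 lists of the series in either replicate, and these peaks were chosen for meeting H3K9me3 in 1 of them. It lay in 2 other H3K27me3 lists, against 3 for the median peak that did not overlap. Pair 1 shares an input library between its marks and pair 3 does not, and what part that input has in the overlaps was not tested.

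As a length, 112 kb was shared in pair 1, where the covered lengths of both marks placed at random would give 73.9 kb, and 84.3 kb in pair 3, against 38.8 kb. These amount to a log2 of observed over expected of 0.60 and 1.12. With the numbers crossed, H3K27me3 replicate 1 gave 1.31 and 2.04 with H3K9me3 replicates 2 and 3, and H3K27me3 replicate 3 gave -0.48 and 0.17 with H3K9me3 replicates 1 and 2, so the sign depended on the lists joined. The shared length was 4.53 and 2.11% of the H3K27me3 length and 0.142 and 0.328% of the H3K9me3 length. Female pairs gave log2 values of 4.59, -0.02 and 2.07. The male mean of 0.86 ± 0.37 (SD, n = 2) was lower than the female mean of 2.21 ± 2.31 (SD, n = 3) by -1.35, which is within the female spread (exact permutation p = 0.6). The male value depended on the peaks kept, at 4.63 with a score of at least 20, where 16.4 and 13.4% of H3K27me3 peaks overlapped H3K9me3, and at 4.32 among equal numbers of top-scored peaks.

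**Figure D5:**
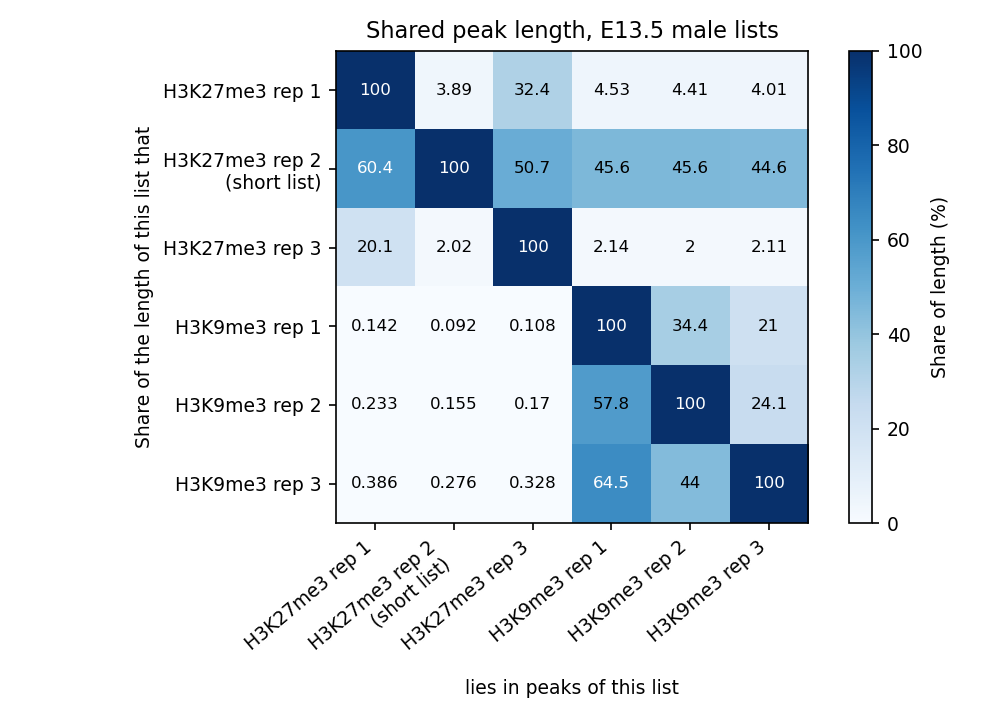
Share (%) of each male list's length (row) that lies in peaks of every other list (column). H3K27me3 replicates 1 and 3 share 20.1 to 32.4% with each other and 2.00 to 4.53% with H3K9me3 lists, the H3K9me3 lists share 21.0 to 64.5% among themselves, and the short list shares 44.6 to 45.6% with H3K9me3.

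Bins of 10 kb that carried both marks were few. In pair 1, 793 bins carried H3K27me3 and 22914 carried H3K9me3, and 11 carried both, where the product of the shares gives 68.8. In pair 3, 1257 bins carried H3K27me3 and 8658 carried H3K9me3, and 12 carried both, against 41.2 from the product. The observed count was 0.16 and 0.291 times the product. With any overlap of a bin counted, 429 and 326 bins held both marks, 1.06 and 0.954 times the product. These counts take in bins with the narrow H3K27me3 peaks that overlap H3K9me3 (364 and 278 peaks). How far those peaks raise the ratio was not tested, so it cannot tell which bins the shortfall lies in. Of the 525 bins with H3K27me3 in both lists, 505 (96.2%) held no base of H3K9me3 in any male list, against 83.1% of all bins.

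Only 6 bins carried both marks in pairs 1 and 3, which is 0.00227% of 264164 bins, and all 6 also did so in pair 2. Pair 3 alone (without the replicate 1 lists) gave 12 and pair 1 alone (without the replicate 3 lists) gave 11. Of the 6, 3 are adjacent at the start of chromosome 9 (chr9:3000001-3030000). The first of these held 4.55 and 3.83 kb of H3K27me3, against 8.55, 8.46 and 8.39 kb of H3K9me3, and all 3 carried a mark in 18 of the 18 lists of the series. The bin chr2:98500001-98510000 held 1.74 and 1.90 kb of H3K27me3, against 2.48, 3.23 and 2.25 kb of H3K9me3, and carried a mark in 17 of 18 lists. The bin chr4:118220001-118230000 held 1.32 and 1.33 kb of H3K27me3, against 1.00, 1.31 and 1.32 kb of H3K9me3, in 16 of 18 lists. These 5 bins were thus marked in nearly every library of either antibody, sex and stage, and the same bases were in peaks of both marks.

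The sixth bin differed. On chromosome 8 (chr8:56200001-56210000) it held 1.43 and 4.99 kb of H3K27me3, against 2.02, 1.06 and 1.07 kb of H3K9me3, and it carried a mark in 11 of 18 lists. The marks lay side by side in pairs 1 and 2, with 0 kb shared, and shared 1.05 kb in pair 3. All 3 female H3K27me3 lists carried it (2.58 to 3.88 kb), as did 1 of the 3 female H3K9me3 lists, while no E10.5 list of H3K27me3 did. It was the one bin left when bins marked in at least 14 of the 18 lists were removed, a limit chosen after the data were seen.

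One more bin, chr9:3030001-3040000, carried both marks in pairs 1 and 2, and the other bins did so in 1 pair each. In pair 1 they included chr6:114580001-114590000, close to the longest H3K27me3 stretch, with 1.60 kb of H3K27me3 and 1.44 kb of H3K9me3 and no shared base. In pair 3, chr17:39980001-39990000 held 4.44 kb of H3K27me3 and 5.69 kb of H3K9me3, of which 4.39 kb was shared, while H3K27me3 replicate 1 had 0 kb there.

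The 359-peak H3K27me3 list covered 0.159 Mb with a median width of 283 bp. Of its peaks, 186 (51.8%) overlapped H3K9me3 of replicate 2, so its median distance to H3K9me3 was 0 kb, against 55.1 kb from bin centres. Most of those, 165, were also in H3K27me3 replicate 1 or 3. A further 33.1% were in H3K27me3 replicate 1 or 3 and not in H3K9me3 replicate 2, and 54 peaks were in none of these. The peaks in H3K27me3 and not in H3K9me3 had a median score of 22.1, against 44.3 for the 165.

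Chromosome 9 held 3.81 times its genome share of this list, against 0.811 and 0.842 times in the other H3K27me3 lists. The first 40 kb with peaks there, from 3 Mb on, held 12 peaks and 24.9 kb, which is 15.7% of the list, against 0.546 and 0.228% of the other H3K27me3 lists and 0.0458 to 0.135% of the H3K9me3 lists. The same stretch held 13 and 11 peaks in the other H3K27me3 lists and 3 to 5 peaks, of 34.5 to 36.1 kb together, in the H3K9me3 lists. All 17 bins of 10 kb that the list carried were carried by H3K27me3 replicate 1 or 3, and 7 of them by H3K9me3 replicate 2. Outside the chromosome 9 stretch, the bin with most of the list was chr1:173000001-173010000, with 5.71 and 4.12 kb in the other H3K27me3 lists, 2.69 kb in the short list and 0 kb in every male H3K9me3 list.

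Few bins were called for a difference between the marks that itself differed between male and female cells, and a bin not called may still differ. Male cells had the higher H3K27me3 over H3K9me3 difference in 40 of 2569 bins of 1 Mb (1.56%) and the lower in 53 (2.06%), in a limma fit of 11 lists. On X lay 26 of the 40 and 5 of the 53, with 164 X bins tested. The total of 93 was 19 without male H3K27me3 replicate 1, 22, 25 and 40 without male H3K9me3 replicates 1, 2 and 3, and between 67 and 118 without each other list. At a score of at least 20 it was 21, of 1945 bins tested.

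In the 5 named lower bins, every female list held more H3K27me3 than both male lists. Male lists held little or none, apart from chr14:49000001-50000000. That bin held 631 and 106 ppm in male lists, against 5093, 3839 and 3135 ppm in female lists. (Of the 53 lower bins, 2 were on Y, where female lists held no H3K27me3 peak.) The bin chr18:66000001-67000000 held 101 and 87.2 ppm of H3K27me3 in male lists, against 5029, 6597 and 4408 ppm in female lists. H3K9me3 there was 170, 104 and 79.0 ppm in male lists, against 0, 49.1 and 0 ppm in female lists. The male minus female difference of the log2 mark differences was -5.70 ± 0.43 (SE; limma adjusted p = 0.000121), and it passed under every alternative run with 1-Mb bins. The bin chr14:27000001-28000000 held 0 and 204 ppm of H3K27me3 in male lists, against 4792, 3159 and 2355 ppm in female lists, a difference of -4.72 (limma adjusted p = 0.00834). The others, chr5:51000001-52000000, chr14:49000001-50000000 and chr8:10000001-11000000, had differences of -4.46, -3.77 and -3.73. The first lost its call with a score of at least 20, at or above the median score and without male H3K27me3 replicate 1 (limma adjusted p of 0.281, 0.128 and 0.0589). The second lost it with a score of at least 20 (0.13), and the third at or above the median score (0.347) and among top-scored peaks (0.0849). With a score of at least 20 the third had peaks in too few lists to be tested. The chr14:27000001-28000000 call was lost with 10 ppm added (0.0631).

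The higher bins were of mixed kind. In chrX:146000001-147000000 male lists held 89.7 and 0 ppm of H3K27me3, against 0 ppm in each female list, and 265, 341 and 260 ppm of H3K9me3, against 1095, 3111 and 2522 ppm in female lists (a difference of 2.94, limma adjusted p = 0.0201). In chr16:18000001-19000000 male lists held 1465 and 310 ppm of H3K27me3, against 0 ppm in each female list, with H3K9me3 at 28.6 to 96.8 ppm in male and 61.3 to 182 ppm in female lists (a difference of 3.53, limma adjusted p = 0.018). The others were chr1:87000001-88000000, chr2:73000001-74000000 and chrX:119000001-120000000, with differences of 2.98, 2.92 and 2.75 and limma adjusted p of 0.0365, 0.0473 and 0.0365. Each of these 5 calls was lost with a score of at least 20 (limma adjusted p of 0.328 to 0.844) and at or above the median score (0.0789 to 0.847). Each was also lost without male H3K9me3 replicate 1 (limma adjusted p of 0.0511 to 0.139) and without replicate 2 (0.0523 to 0.132). Among top-scored peaks chr2:73000001-74000000 was not tested, and the other higher bins lost the call (limma adjusted p of 0.0849 to 0.495). Leaving out male H3K27me3 replicate 1 leaves a single male H3K27me3 list, and the differences were then 2.48 to 2.81.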

How the data were processed

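Native ChIP-seq peak lists of sorted germ cells were used as deposited, 1 list per ChIP library. The authors called broad peaks per sample against an input, per the peak names in the files. The submitters' processing notes list the build mm9 and MACS2 2.1.0, BWA 0.7.5a, CASAVA 1.8.4, deepTools 3.3.0, SAMtools and Picard, without saying what each did. Cutoffs of the peak caller and filters on reads were not given in the sources used. Scores deposited by the authors, 1 set per peak, have no known scale (column 9 exceeded column 8 in 100% of peaks), so they only ranked or filtered peaks. Peak starts and ends were read from the deposited positions.

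In this re-analysis overlapping peaks were merged and 19 mitochondrial peaks left out of 265293. Genome length was the sum of the last peak ends, 2641.51 Mb. Protein-coding genes per chromosome came from RefSeq GRCm38.p6. A 10-kb bin carried a mark with at least 1 kb in peaks, and 1-Mb bins needed a peak in 2 of the 5 lists (3 of 11 across sexes). Shares were tested with limma 3.58.1 (R 4.3.3) on log2(ppm + 100), with Benjamini-Hochberg adjusted p under 0.05 as the call, and chromosome ratios on log2 after adding 0.01. Single values were tested with exact permutation tests (scipy 1.17.1). The limma script was tested on simulated data.

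Lists, members and rules were chosen with earlier results of these data known. Named bins and stretches are the 5 largest or longest by direction or mark. The limit of 14 lists was added after the data were seen. Same-numbered marks deviated together with correlations of 0.033, 0.0970 and 0.0649, none above 0.1, so the numbers do not pair the reported tests (a fit with the number as a block is among the alternatives), and same-numbered lists of both marks were only set side by side for distances and shared length. Input samples are not used here.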

Additional observations from a re-analysis of the deposited data

Results flagged for a closer look

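The difference between the marks was called as differing between male and female cells, by the test of that difference, in 93 of 2569 bins of 1 Mb. With a score of at least 20 it was 21 of 1945 bins. Of the bins named below, just chr18:66000001-67000000 and chr14:27000001-28000000 kept the call at that score. The 10 named ones had male minus female differences, on the log2 scale, of 3.53 (chr16:18000001-19000000), 2.98 (chr1:87000001-88000000), 2.94 (chrX:146000001-147000000), 2.92 (chr2:73000001-74000000) and 2.75 (chrX:119000001-120000000) where male was higher. Where male was lower they were -5.70 (chr18:66000001-67000000), -4.72 (chr14:27000001-28000000), -4.46 (chr5:51000001-52000000), -3.77 (chr14:49000001-50000000) and -3.73 (chr8:10000001-11000000).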

How the results depend on the processing

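Covered length, median width, wide peaks, the X share and both chromosome ends kept their direction under every alternative run, and none could pass 0.05 in tests of this size. Chromosomes called numbered 11 to 18 over the alternatives. Of 2571 bins of 1 Mb, 1839 were called. With a score of at least 20 it was 702 of 1998, and among equal numbers of top-scored peaks 727 of 1888. With 500-kb bins 3264 of 4846 were called, and with 2-Mb bins 1001 of 1307. The 93 bins of the sex comparison became 21 with that score, 39 at or above each list's median score, 48 among top-scored peaks, 38 with 10 ppm added, 184 with 1000 ppm, 184 with 500-kb and 35 with 2-Mb bins, and 19 to 118 with 1 list left out. The named bins of that comparison lost the call in 65 of 178 values over the alternatives, and called chromosomes in 8 of 180. The log2 shared length of 0.86 became 2.13 with all 3 pairs, 4.63, 2.36 and 4.32 under the score minimum, the median score and top-scored peaks. Male minus female shared length turned to 0.0986 among top-scored peaks. The mean median distance of 111 kb became 448 kb with the score minimum and 623 kb among top-scored peaks, where fewer H3K9me3 peaks are left. The 6 bins with both marks became 163 with any overlap, 11 with at least 500 bp and 3 with at least 2 kb. They became 13 with 50-kb bins and 1 without bins marked in 14 or more lists. Pair 3 alone gave 12 and pair 1 alone gave 11. Where no cause is named, the cause was not tested. With the replicate number as a block, 1628 bins (428 higher, 1200 lower) and 15 chromosomes were called, and with all 6 lists 1320 and 13. Deviations of every H3K27me3 list correlated best with those of the H3K9me3 list of its own number, but weakly (0.033, 0.0970 and 0.0649). For H3K27me3 replicate 1 the value with H3K9me3 replicate 3 was close, at 0.0259. Depth is unknown, so what was not called cannot be told from what was not sequenced.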
